A study of Mus musculus with 9 samples.

Results

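The dual-specificity MAPK phosphatases described here are 10 genes, Dusp1, Dusp2, Dusp3, Dusp4, Dusp5, Dusp6, Dusp7, Dusp8, Dusp10 and Dusp16. All 10 were found by symbol among the 14771 genes of the deposited table, and all 10 were among the 11281 genes that passed the filter on low counts. They were chosen by name with their measured differences between the groups already known (Dusp6 lower, Dusp1 and Dusp8 higher with LPS, Dusp2 still high with suramin). Their values are therefore given as a description, without p-values, and support nothing by themselves.

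RNA was sequenced from MH-S cells, an immortalised mouse alveolar macrophage line, in 3 groups of 3 libraries. The CON libraries came from cells given culture medium. The LPS libraries came from cells given lipopolysaccharide, the bacterial outer membrane component sensed by the receptor TLR4, at 1 µg/ml for 4 h. The SUR libraries are labelled suramin, a polyanionic drug, and the treatment protocol describes 200 µM suramin only in combination with 1 µg/ml LPS for 4 h. They are taken here as suramin plus LPS, and no group received suramin alone. A cell line stands in for alveolar macrophages of the lung, and nothing in the labels says that the libraries of a group came from separate cultures. All p-values then measure only the spread between these libraries, which may be technical.

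Mitogen-activated protein kinases, the ERK, JNK and p38 families, are switched on by phosphorylation of a threonine and a tyrosine in their activation loop and carry signals from TLR4 to transcription factors and mRNA-stability proteins. Dual-specificity phosphatases remove both phosphates and so end the signal. Many are themselves transcribed when MAPKs are active and act as negative feedback, and in macrophages Dusp1 is known for limiting p38 and JNK activity and cytokine output after LPS. By textbook class, Dusp1, Dusp2, Dusp4 and Dusp5 are nuclear and inducible (Dusp5 prefers ERK), Dusp6 and Dusp7 are cytoplasmic and ERK-selective, and Dusp8, Dusp10 and Dusp16 prefer JNK and p38. Dusp3 is a small atypical member without the MAPK-binding domain of the others. Only mRNA was measured, so phosphatase protein and MAPK phosphorylation were not analysed here.

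Each library held between 15729402 and 16675250 counts in all. Levels are given as CPM, a gene's counts relative to its library's TMM-scaled total. For the cell type markers below, CPM is instead relative to the library's unscaled total. The 3 libraries numbered 1 stood apart from those numbered 2 and 3 in each group: the chi-square per degree of freedom between libraries of a group was 28.3 to 35.5 for pairs with a library numbered 1 and 3.73 to 6.01 for the others. Where leaving out these 3 libraries changed the call of a member or of a pathway gene with CPM given, the value without them is given beside it. The macrophage markers Ptprc, Csf1r, Adgre1, Cd68, Lyz2, Itgax, Marco, Fcgr1 and Mertk summed to between 4604 and 6980 CPM in every library. Lyz2 gave the largest part of that sum (1671 to 3809 CPM). Itgax had only 6.92 to 12.46 CPM, and Marco was at 0 in every library except SUR 2 (0.0604 CPM). Markers of epithelium reached at most 0.188 CPM in sum, those of lymphocytes and neutrophils at most 0.302 and those of fibroblasts and endothelium at most 1.32. In bulk RNA, fewer cells expressing a gene and less of its RNA per cell cannot be told apart.

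Dusp1 and Dusp8 had the largest LPS to CON ratios among the members, Dusp5 was also higher with LPS, and Dusp6 was lower. Their promoter sequences are shown so that the 4 can be compared, each from 250 to 51 bases before the RefSeq start site, 5′ to 3′ on the gene's strand, in build GRCm38.p6. The positions are chr17:26508523-26508722 (minus strand) for Dusp1, chr7:142095335-142095534 (minus) for Dusp8, chr19:53528895-53529094 (plus) for Dusp5 and chr10:99262981-99263180 (plus) for Dusp6. Capitals mark the cAMP response element TGACGTCA, its shorter part TGACGT in either orientation, and the SRF CArG box. Dusp1, Dusp8 and Dusp5 (5.79-fold higher in LPS than in CON) are the only members with a match among the 9 whose promoter was at hand. Dusp2 (6.48-fold), Dusp16 (5.73-fold) and Dusp10 (1.52-fold) were also higher with LPS, had no match and are not printed. Dusp4 (3.6-fold) was higher too, but its promoter was not at hand and was not searched.
Dusp1: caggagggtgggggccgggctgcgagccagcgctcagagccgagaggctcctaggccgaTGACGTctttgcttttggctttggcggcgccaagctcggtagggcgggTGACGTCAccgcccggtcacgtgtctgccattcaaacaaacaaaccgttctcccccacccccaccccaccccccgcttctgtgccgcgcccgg
Dusp8: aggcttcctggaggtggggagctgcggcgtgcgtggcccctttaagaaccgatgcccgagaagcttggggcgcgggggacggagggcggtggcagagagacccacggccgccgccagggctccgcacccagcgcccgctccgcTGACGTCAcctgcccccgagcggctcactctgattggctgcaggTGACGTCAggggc
Dusp5: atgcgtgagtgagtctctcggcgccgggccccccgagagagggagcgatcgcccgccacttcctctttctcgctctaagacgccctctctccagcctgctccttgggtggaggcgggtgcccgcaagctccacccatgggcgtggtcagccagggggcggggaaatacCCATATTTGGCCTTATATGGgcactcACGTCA
Dusp6: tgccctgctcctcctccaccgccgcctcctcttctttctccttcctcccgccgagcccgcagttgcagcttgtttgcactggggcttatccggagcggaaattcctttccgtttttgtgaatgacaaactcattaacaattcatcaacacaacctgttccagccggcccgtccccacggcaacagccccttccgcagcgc

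RefSeq promoters were at hand for 9 of the 10 members (not Dusp4), and each was searched on both strands over 250 bases before and 50 after the start. The palindrome TGACGTCA, the binding element of CREB and ATF factors, began at -143 in Dusp1 and at -107 and -63 in Dusp8. It is held by 588 of 32851 mouse promoters of that length (1.79%). The shorter TGACGT, which lies inside the palindrome and is held by 7.51% of promoters, also occurred by itself in Dusp1 at -191 and in Dusp5 at -56. Dusp5 had a pair of adjoining SRF CArG boxes at -82 and -72, an element held by 1.63% of promoters. No match to these elements lay in the windows of Dusp2, Dusp3, Dusp6, Dusp7, Dusp10 or Dusp16. None of the 9 windows held TATAAA (13.6% of promoters), the AP-1 element TGANTCA (7.81%) or the NF-kappaB pattern GGGRNWYYCC (4.51%). The ETS-type sequence CCGGAA (14.9%) was absent too, but the shorter ETS core GGAA was not searched for. A match describes letters in the window, not a site shown to be bound. The windows of Dusp3, Dusp5, Dusp8 and Dusp16 lie inside the deposited spans of these genes, which have more than a single start. That of Dusp7 overlaps its deposited span, which begins at 106368560, before the start used. A match in any of these windows, or the lack of it, holds only for the start used.

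**Figure D1:**
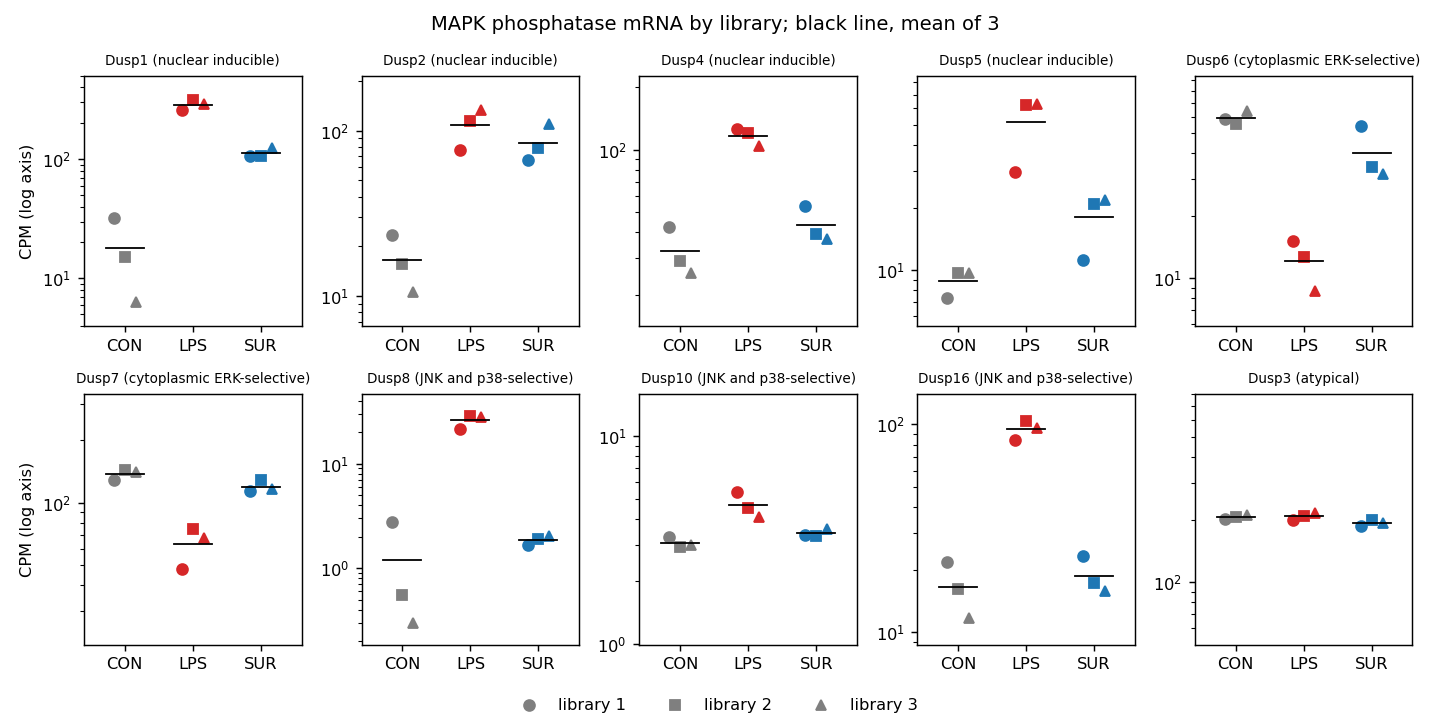
CPM of each MAPK phosphatase gene in every library, on a log axis of its own per gene. Points are libraries (circle, number 1; square, number 2; triangle, number 3) and the black line is the mean of 3. In Dusp1 the LPS libraries sit between 259 and 313 CPM and the CON libraries between 6.37 and 32.1, while Dusp6 runs the other way and Dusp3 lies between 187 and 214 CPM in all 9 libraries.

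Among the nuclear inducible members, Dusp1 (chr17:26505591-26508472), an immediate-early phosphatase of p38, JNK and ERK, had the highest TPM of the 10 in LPS (245). The CON libraries 1, 2 and 3 had 32.1, 15.0 and 6.37 CPM, the LPS libraries 259, 313 and 289 CPM, and the SUR libraries 106, 105 and 124 CPM. The 3 groups did not overlap, and SUR lay between the others. Dusp1 was 16.1-fold higher in LPS than in CON (log2 4.01, SE 0.463, n = 3 per group). The CON libraries spread widely around their mean of 17.8 ± 13.1 CPM (SD), and the ratio was 27.0-fold without CON 1 and 28.4-fold without the 3 libraries numbered 1. In SUR, Dusp1 was below LPS by a log2 fold change of -1.36 (SE 0.410) and above CON by 2.65 (SE 0.442). Neither of these was called, that is, reached an adjusted p under 0.05 in the edgeR fit to all 9 libraries. Both were called with the replicate number as a block (-1.36 and 2.68), with DESeq2, with limma-voom and without the low-count filter. Upper-quartile scaling and FPKM called the SUR to CON difference but not the SUR to LPS one. With only the 2 groups in the fit, the SUR to LPS difference was called and the SUR to CON one was not. The SUR to LPS difference was also called without CON 1 (-1.38) or CON 3 (-1.36), and the SUR to CON difference without CON 1 (3.38). Without the 3 libraries numbered 1, both were called, at -1.41 and 3.42.

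Dusp2 (chr2:127336159-127338377), a nuclear phosphatase of ERK and p38 found mainly in haematopoietic cells, kept most of its LPS level in SUR. Its CPM were 23.5, 15.8 and 10.6 in CON, 76.2, 114 and 134 in LPS, and 66.6, 78.2 and 109 in SUR. LPS and SUR overlapped, and every library of either was above every CON library. The LPS to CON log2 fold change was 2.70 (SE 0.325), and SUR was at 2.35 (SE 0.322) over CON and at -0.35 (SE 0.297) against LPS. Dusp2 was the only member called between SUR and CON in the 9-library fit. That call was lost, at log2 fold changes of 2.10 to 2.40, without any of CON 2, CON 3, LPS 2, LPS 3, SUR 2 or SUR 3, and with only the 2 groups in the fit. SUR was above CON within each library number, most so in number 3 (3.35 on the log2 scale).

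Dusp4 (chr8:34807610-34821951), a nuclear phosphatase of ERK and JNK, had 42.4, 29.3 and 25.6 CPM in CON, 126, 121 and 104 in LPS, and 53.6, 39.4 and 37.1 in SUR. Its SUR libraries overlapped CON and lay well below LPS. The LPS to CON log2 fold change was 1.85 (SE 0.203) and the SUR to LPS one -1.43 (SE 0.200). Dusp5 (chr19:53528609-53541809), the nuclear ERK-selective member, had 7.36, 9.74 and 9.65 CPM in CON, 29.8, 62.2 and 63.0 in LPS, and 11.2, 20.7 and 21.8 in SUR. Its groups did not overlap, and in each the library numbered 1 was the lowest. Dusp5 differed by a log2 fold change of 2.53 (SE 0.341) between LPS and CON and by -1.53 (SE 0.323) between SUR and LPS. Against CON, SUR was at 0.42 (SE 0.201) for Dusp4 and 1.01 (SE 0.338) for Dusp5, neither called in the 9-library fit. Both were called higher with the replicate block, at 0.42 and 0.99, and without the 3 libraries numbered 1, at 0.48 and 1.13. An antisense RNA overlaps Dusp5 in GENCODE, and since the counting is not stated to use strand, the Dusp5 counts may include its reads.

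The cytoplasmic ERK-selective members ran the opposite way. Dusp6 (chr10:99263231-99267489), the classical feedback phosphatase of ERK, had 58.4, 55.5 and 63.7 CPM in CON, 15.1, 12.7 and 8.71 in LPS, and 54.3, 34.4 and 31.6 in SUR. Every LPS library was below every other library, and SUR sat below CON without overlap. Its log2 fold change was -2.28 (SE 0.244, 4.86-fold lower) for LPS against CON and 1.72 (SE 0.242) for SUR against LPS. SUR against CON was -0.56 (SE 0.226), called only with the replicate block (-0.59) or without the 3 libraries numbered 1 (-0.85). SUR 1, at 54.3 CPM, was close to the CON libraries, whereas SUR 2 and SUR 3 were about midway on the linear scale between their CON and LPS counterparts.

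Dusp7 (chr9:106368560-106375724), the other cytoplasmic ERK phosphatase and the one of higher TPM in CON, differed the same way by less. Its CPM were 128, 144 and 140 in CON, 48.1, 74.9 and 67.4 in LPS, and 114, 129 and 116 in SUR. LPS did not overlap the others, and SUR overlapped CON. The log2 fold changes were -1.11 (SE 0.145) for LPS against CON, 0.91 (SE 0.145) for SUR against LPS and -0.20 (SE 0.143) for SUR against CON.

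Of the JNK- and p38-selective members, Dusp8 (chr7:142079487-142095907) had the largest ratio of all 10 and the fewest counts in CON. CON held 47, 9 and 5 counts of Dusp8, or 2.74, 0.548 and 0.298 CPM. LPS had 21.5, 28.8 and 28.1 CPM and SUR 1.67, 1.89 and 2.05 CPM. The LPS libraries were far above all others, and the SUR values fell inside the wide CON range. LPS exceeded CON by a log2 fold change of 4.43 (SE 0.546, 21.5-fold), and the ratio was 61.3-fold without CON 1 and 66.8-fold without the 3 libraries numbered 1. SUR was below LPS by -3.80 (SE 0.518). Against CON it was at 0.63 (SE 0.602), and within library numbers the difference was -0.68 for number 1 but 1.59 and 2.37 for numbers 2 and 3. Without CON 1 it was 2.13 and without the 3 libraries numbered 1 it was 2.20, and it was called in both. A non-coding RNA of the opposite strand overlaps the start of Dusp8 in GENCODE, so a part of its few counts may come from that RNA.

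Dusp16 (chr6:134715468-134807063), which acts on JNK in particular, had 21.8, 16.2 and 11.7 CPM in CON, 84.4, 104 and 96.0 in LPS, and 23.2, 17.2 and 15.7 in SUR. SUR overlapped CON and had no overlap with LPS. Its log2 fold changes were 2.52 (SE 0.226), -2.34 (SE 0.224) and 0.18 (SE 0.225) for LPS against CON, SUR against LPS and SUR against CON. Dusp10 (chr1:184034381-184075636), a phosphatase of JNK and p38 known as MKP5, had 3.27, 2.92 and 2.98 CPM in CON, 5.39, 4.49 and 4.09 in LPS, and 3.34, 3.31 and 3.57 in SUR. LPS did not overlap the other groups but exceeded them by little. Its LPS to CON log2 fold change of 0.61 (SE 0.153) was called in the 9-library fit. The call was lost without CON 2 (0.58), CON 3 (0.59), LPS 1 (0.49) or LPS 2 (0.63), and with only the 2 groups in the fit. SUR was at -0.45 (SE 0.152) against LPS, called lower only with the replicate block (-0.45).

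Dusp3 (chr11:101964668-101987013 in the deposited table), also called VHR, was the member with nearly the same CPM everywhere, at 201, 206 and 211 in CON, 199, 207 and 214 in LPS, and 187, 198 and 193 in SUR. CON and LPS overlapped, and SUR sat slightly below both. Its log2 fold changes of 0.0076 (SE 0.0564), -0.10 (SE 0.0564) and -0.09 (SE 0.0564) were small, and on deposited FPKM they were -0.14, 0.04 and -0.10, so the sign flipped for LPS against CON and for SUR against LPS but not for SUR against CON. The SUR to LPS value was called lower with the replicate block, at -0.10. The deposited span of Dusp3 is longer than the RefSeq gene, which starts at 101971141, and its strand is given as plus where RefSeq has minus, so the counts may include reads of neighbouring genes.

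**Figure D2:**
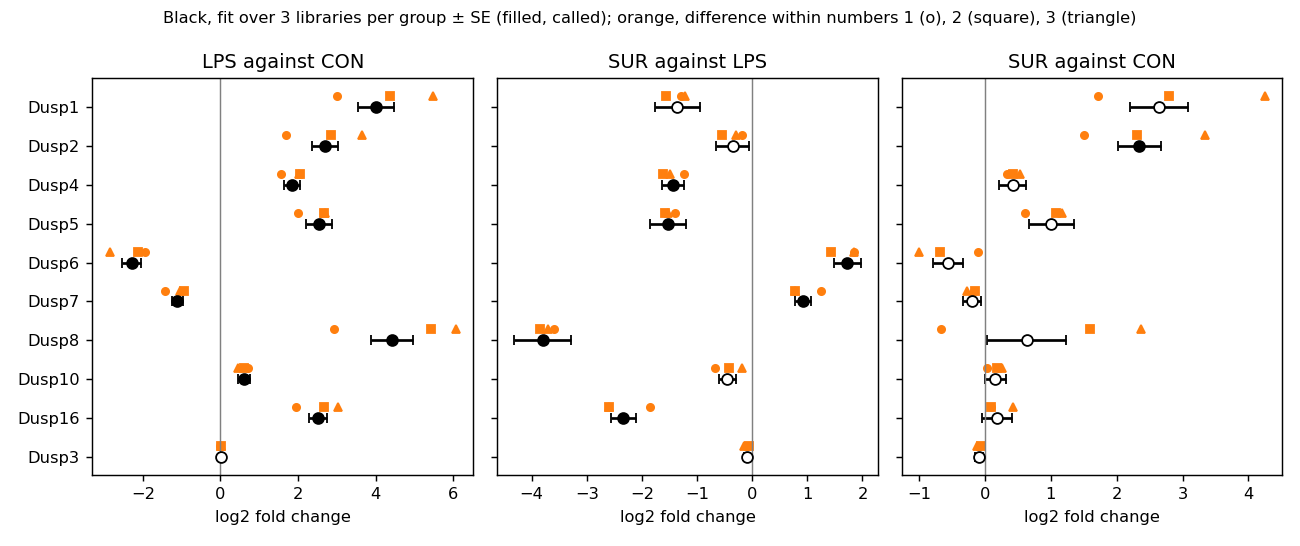
Log2 fold changes of the 10 members in the 3 comparisons. Black points are the edgeR estimate over 3 libraries per group with its SE (filled where called), and orange points are the differences within library numbers 1 (circle), 2 (square) and 3 (triangle). Dusp6 and Dusp7 lie on the opposite side of 0 from Dusp1, Dusp2, Dusp4, Dusp5, Dusp8 and Dusp16 in LPS against CON and in SUR against LPS, and Dusp8 spreads from -0.68 to 2.37 in SUR against CON.

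Between LPS and CON, 7 members were higher and 2 lower at an adjusted p under 0.05, where 8.98% of all tested genes were called higher and 9.36% lower. Between SUR and LPS, 2 were higher (Dusp6 and Dusp7) and 4 lower (Dusp4, Dusp5, Dusp8 and Dusp16), where 9.29% and 7.93% of all genes were called. Between SUR and CON, 1 was higher and 0 lower, where 0.39% and 0.0355% were called. The members were selected on these contrasts, so nothing is read from their counts. With the replicate number as a block, 7 members instead of 4 were lower in SUR than in LPS, where 22.7% of all tested genes were then called lower. With that block 4 members were higher and 1 lower in SUR than in CON, against 7.37% and 4.18% of all tested genes. The median log2 fold change over the members was 2.18, -0.91 and 0.30 in the 3 comparisons, against -0.0088, -0.0059 and -0.0093 over all tested genes. The comparisons share libraries, LPS in the first pair and CON or SUR in the others, so a member's opposite signs in LPS against CON and SUR against LPS are not independent of each other.

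The place of SUR between CON (0) and LPS (100) on the linear CPM scale separated the members further. From group means it was 74.4 for Dusp2, 40.5 for Dusp6, 34.9 for Dusp1, 24.1 for Dusp7, 21.95 for Dusp10, 21.05 for Dusp5 and 12.9 for Dusp4. Dusp16 and Dusp8 were at 2.76 and 2.71, unlike Dusp10 of the same JNK- and p38-selective class. For Dusp8 this low place is set by its high LPS level. On the log2 scale its SUR to CON difference was -0.68, 1.59 and 2.37 in numbers 1, 2 and 3. It was called higher without the 3 libraries numbered 1 (2.20). Within library numbers, Dusp2 ranged from 63.5 to 81.7, above the range of each other member (Dusp1, for example, from 30.3 to 41.6). Dusp6 ranged from 9.53 in number 1 to 58.3 in number 3, and Dusp10 from 3.51 to 53.0, so their places are poorly fixed. Dusp3 has none, since its LPS and CON means differed by less than their spread.

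**Figure D3:**
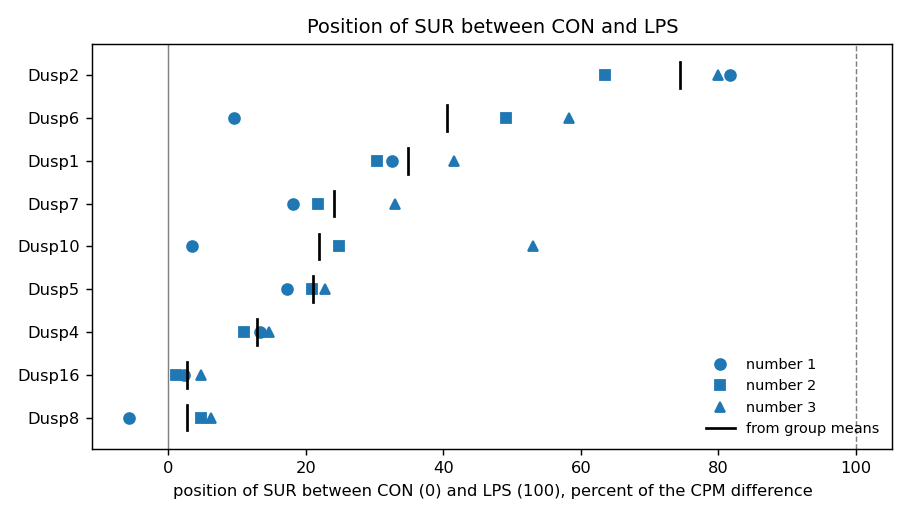
Place of SUR on the scale from CON (0) to LPS (100), in percent of the CPM difference, for the 9 members other than Dusp3. Symbols are library numbers and the black bar uses group means. Dusp2 lies between 63.5 and 81.7, and Dusp8 and Dusp16 lie between -5.72 and 6.30.

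Levels can be compared between genes only per length, for which the deposited TPM served. In CON the order by mean TPM was Dusp3 (82.7), Dusp7 (72.1), Dusp6 (36.2), Dusp4 (23.3), Dusp2 (19.1), Dusp1 (16.6), Dusp5 (8.89), Dusp16 (5.35), Dusp10 (1.88) and Dusp8 (0.413), and the neighbours from Dusp4 down to Dusp5 overlapped in their libraries. With LPS the order became Dusp1 (245), Dusp2 (114), Dusp4 (77.5), Dusp3 (76.3), Dusp5 (47.5), Dusp7 (30.7), Dusp16 (28), Dusp8 (8.14), Dusp6 (6.89) and Dusp10 (2.64). There Dusp2, Dusp4 and Dusp3 overlapped in turn, as did Dusp5, Dusp7 and Dusp16, and Dusp8 and Dusp6. Dusp6 thus went from the third place in CON to the ninth. In SUR, Dusp1 (105) and Dusp2 (98.8) overlapped at the top, followed by Dusp3 (78.6) and Dusp7 (63.9), then by Dusp4 (31.8), Dusp6 (25.2) and Dusp5 (18.2), which overlapped in turn. Dusp16 (6.11), Dusp10 (2.13) and Dusp8 (0.65) came last, each apart from the next.

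Summed by class, the nuclear inducible members had 68.0 ± 26.1 TPM in CON, 483 ± 52.8 in LPS and 254 ± 31.2 in SUR (SD, n = 3). The cytoplasmic ERK-selective pair, Dusp6 and Dusp7, had 108 ± 4.02, 37.6 ± 5.29 and 89.0 ± 8.56 TPM. Dusp5, which also prefers ERK, was counted with the nuclear inducible class and ran the other way (8.89, 47.5 and 18.2 TPM). The pair's values are therefore not those of all ERK-selective members. For the JNK- and p38-selective class, the sums were 7.64 ± 2.31, 38.8 ± 3.23 and 8.89 ± 1.39 TPM. Thus 75.9% of the members' TPM in LPS came from the nuclear inducible class, against 25.1% in CON and 58.9% in SUR. The ERK-selective pair made up 40.9%, 5.90% and 20.8% in CON, LPS and SUR. Without Dusp3, whose counts may include reads of neighbouring genes, the nuclear inducible share was 36.2%, 86.3% and 72.0% in CON, LPS and SUR, and that of the ERK-selective pair 59.8%, 6.71% and 25.4%. The ratio of nuclear inducible to cytoplasmic ERK-selective TPM was 0.916, 0.571 and 0.410 in the CON libraries, 13.0, 12.0 and 13.7 in LPS, and 2.41, 2.67 and 3.60 in SUR, with no overlap between groups. The sums of the nuclear inducible class and of the cytoplasmic ERK-selective pair in SUR both lay between those of CON and LPS without overlap. The JNK- and p38-selective sum overlapped CON.

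**Figure D4:**
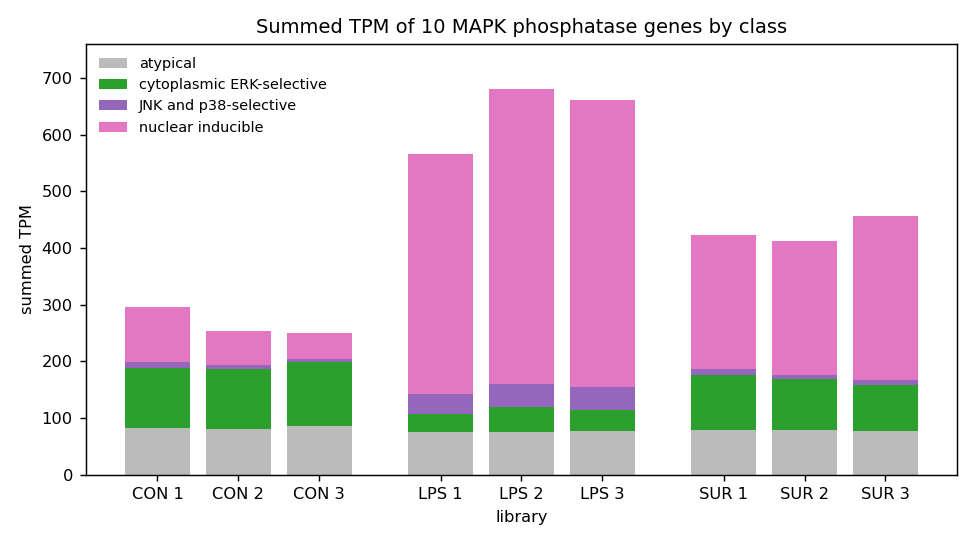
Summed TPM of the 10 members in each library, stacked by class (atypical is Dusp3). The nuclear inducible part, which holds the ERK-selective Dusp5, is 46.3 to 96.9 TPM in CON, 423 to 519 TPM in LPS and 236 to 290.2 TPM in SUR. The cytoplasmic ERK-selective part, Dusp6 and Dusp7, is smallest in LPS.

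The members' substrates and the rest of the pathway were read from 9 lists of 95 genes, of which 90 were in the table and 83 tested. The lists were chosen with earlier results of these data known. The shares of all tested genes given here, with and without the replicate block, apply to each list below. Between LPS and CON, 18 of the 83 rose and 2 fell, where 8.98% and 9.36% of all tested genes did. Between SUR and LPS, 6 rose and 13 fell, where 9.29% and 7.93% of all tested genes did, so the number that rose was not above that share. Between SUR and CON 5 rose and 0 fell, against 0.39% and 0.0355% of all tested genes. The median log2 fold change over the 83 was 0.13, -0.03 and 0.07. With the replicate block the calls numbered 35 and 9, 14 and 28, and 18 and 2. The block also called more of all tested genes: 20.1% higher and 21.7% lower in LPS than in CON, 22.6% and 22.7% in SUR against LPS, and 7.37% and 4.18% in SUR against CON. Without the 3 libraries numbered 1 the calls numbered 30 and 5, 9 and 18, and 17 and 1. The split depended on scaling: upper-quartile scaling gave 15 and 5 for LPS against CON and 9 and 11 for SUR against LPS, and FPKM gave 13 and 8, and 9 and 10. On FPKM the median gene itself was shifted by -0.137 and 0.138 in these comparisons.

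Of the MAPKs that the phosphatases act on, Mapk3, Mapk9 and Mapk14 differed little in mRNA between groups. Mapk3 (ERK1) had 104 ± 14.5, 105 ± 20.5 and 95.6 ± 17.9 CPM in CON, LPS and SUR (SD, n = 3), Mapk9 (JNK2) 70.7 ± 5.95, 64.2 ± 3.33 and 73.1 ± 1.27, and Mapk14 (p38 alpha) 158 ± 21.3, 153 ± 22.6 and 166 ± 21.0. None of these was called in any comparison by the 9-library fit. With the replicate block, Mapk3 was lower (-0.13) and Mapk14 higher (0.12) in SUR than in LPS, and Mapk9 was lower in LPS than in CON (-0.14) and higher in SUR than in LPS (0.19). Mapk9 was also called on FPKM in both of these comparisons (-0.27, adjusted p = 0.0322, and 0.32, adjusted p = 0.0179), and with upper-quartile scaling in SUR against LPS (0.28). Mapk8 (JNK1) rose from 28.9 ± 2.88 to 37.3 ± 2.05 CPM with LPS (log2 0.37, SE 0.0931, adjusted p = 0.0247) and was at 30.4 ± 2.13 in SUR, called lower than LPS with the replicate block or without CON 1 or SUR 1 (-0.29, -0.31 and -0.37), without the 3 libraries numbered 1 (-0.34), and with DESeq2. The call with LPS was lost without CON 2, CON 3, LPS 1 or LPS 2 (log2 0.31 to 0.35) and under upper-quartile scaling (adjusted p = 0.0607) or FPKM (0.147).

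Of 8 tested ERK module kinases, Braf, which encodes a kinase that activates MEK, rose with LPS from 54.8 ± 2.87 to 67.8 ± 1.84 CPM (log2 0.31, SE 0.0606, adjusted p = 0.00735), though not on FPKM (0.159). It was lower in SUR than in LPS with the replicate block alone (-0.17), under which 5 of the 8 were called in that comparison instead of 1. Map3k8, which encodes TPL2, the kinase that links TLR4 to ERK in macrophages, was higher in SUR than in either other group. Its libraries 1, 2 and 3 had 8.41, 4.87 and 3.99 CPM in CON, 7.48, 6.94 and 8.58 in LPS, and 15.7, 21.5 and 22.3 in SUR. The SUR libraries were above all others, and CON overlapped LPS. The log2 difference of SUR from LPS was 1.37 ± 0.258 (SE), with an adjusted p of 0.00697 that stayed at or under 0.0353 with any library left out. It exceeded CON by 1.78 (SE 0.263, adjusted p = 0.0375), but that call was lost, at 1.58 to 1.78, without CON 2, CON 3, any LPS library, SUR 2 or SUR 3, and also with only the 2 groups in the fit. LPS against CON was 0.41 (adjusted p = 0.381), and it was called without CON 1 (0.80) and without the 3 libraries numbered 1 (0.82). The list's median log2 fold change was 0.04, -0.06 and -0.0050 in the 3 comparisons.

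Of 6 JNK module kinases, Mapk8 rose with LPS, and Map2k4, an activator of JNK, was lower in SUR than in LPS (62.3 ± 0.16 against 71.2 ± 3.25 CPM, log2 -0.19, adjusted p = 0.0442). The Map2k4 call held without CON 1 or LPS 3 and was lost without any other single library, with adjusted p-values up to 0.121. It was also lost without the 3 libraries numbered 1 (-0.18), with limma-voom, without the low-count filter, with only the 2 groups in the fit, on FPKM (adjusted p = 0.616) and under upper-quartile scaling (0.271). The replicate block gave 2 calls among the 6 in LPS against CON and 3 in SUR against LPS, each instead of 1. The list's medians were 0.03, -0.06 and -0.01 on the log2 scale. Of 4 tested p38 module kinases, 0 were called in any comparison by edgeR, 0 by DESeq2 and 0 by limma-voom. At an unadjusted p under 0.05 there were 0, 0 and 1 of these in LPS against CON, SUR against LPS and SUR against CON, and with the replicate block 1, 2 and 1. Their medians were 0.07, 0.07 and 0.06. Among 11 shared MAP3K and TAK1 complex genes, Map3k6, a stress-responsive MAP3K, rose with LPS from 26.6 ± 1.65 to 44.8 ± 4.78 CPM (log2 0.75, adjusted p = 0.000593) and fell to 30.2 ± 0.661 in SUR (-0.57, adjusted p = 0.00317). Tab1, a TAK1-binding subunit, fell from 33.6 ± 1.76 to 22.5 ± 1.05 CPM (-0.58, adjusted p = 0.00103) and was at 32.2 ± 1.83 in SUR (0.51 over LPS, adjusted p = 0.00246). Under the replicate block, 9 of the 11 were called in LPS against CON instead of 2, and 6 instead of 2 in SUR against LPS. The medians of that list were 0.15, 0.01 and 0.03.

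Of 10 kinases downstream of MAPKs, Mapkapk2 stood out. It encodes MK2, the p38 substrate kinase that stabilises cytokine mRNAs. Its CPM were 588, 491 and 468 in CON, 1697, 1996 and 1817 in LPS, and 544, 598 and 575 in SUR, so LPS was above all others and SUR overlapped CON. It rose with LPS (log2 1.83, SE 0.102, adjusted p = 2.82e-05) and was lower in SUR than in LPS (-1.68, SE 0.101, adjusted p = 6.31e-05). Against CON, SUR was at 0.15 and not called, but without the 3 libraries numbered 1 it was called higher (0.29). Mapkapk3, its close relative, had 85.8 ± 1.06, 107 ± 8.13 and 86.3 ± 7.63 CPM. Its log2 fold changes of 0.32 (adjusted p = 0.024) and -0.32 (adjusted p = 0.0284) lost their calls without CON 2, CON 3, LPS 2 or LPS 3 (0.28 to 0.32) and without LPS 2, LPS 3, SUR 1 or SUR 3 (-0.26 to -0.35), and also under upper-quartile scaling (0.0796 and 0.0864) and on FPKM (0.119 and 0.144). The second was lost with only the 2 groups in the fit too. Mknk2, which phosphorylates the cap-binding factor eIF4E, was higher in SUR than in LPS (385 ± 9.30 against 303 ± 21.4 CPM, log2 0.34, adjusted p = 0.0109). In LPS against CON it was at -0.21 and not called in the 9-library fit. It was called lower there without LPS 1 (-0.27), with the replicate block (-0.21), without the 3 libraries numbered 1 (-0.21), with DESeq2, with upper-quartile scaling (-0.31) and on FPKM (-0.35). With the block 7 of the 10 were called in LPS against CON instead of 2, 5 instead of 3 in SUR against LPS, and 3 instead of 0 in SUR against CON, where 1 had an unadjusted p under 0.05 and DESeq2 and limma-voom called 0. The median log2 fold changes of these kinases were 0.04, -0.10 and 0.02.

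**Figure D5:**
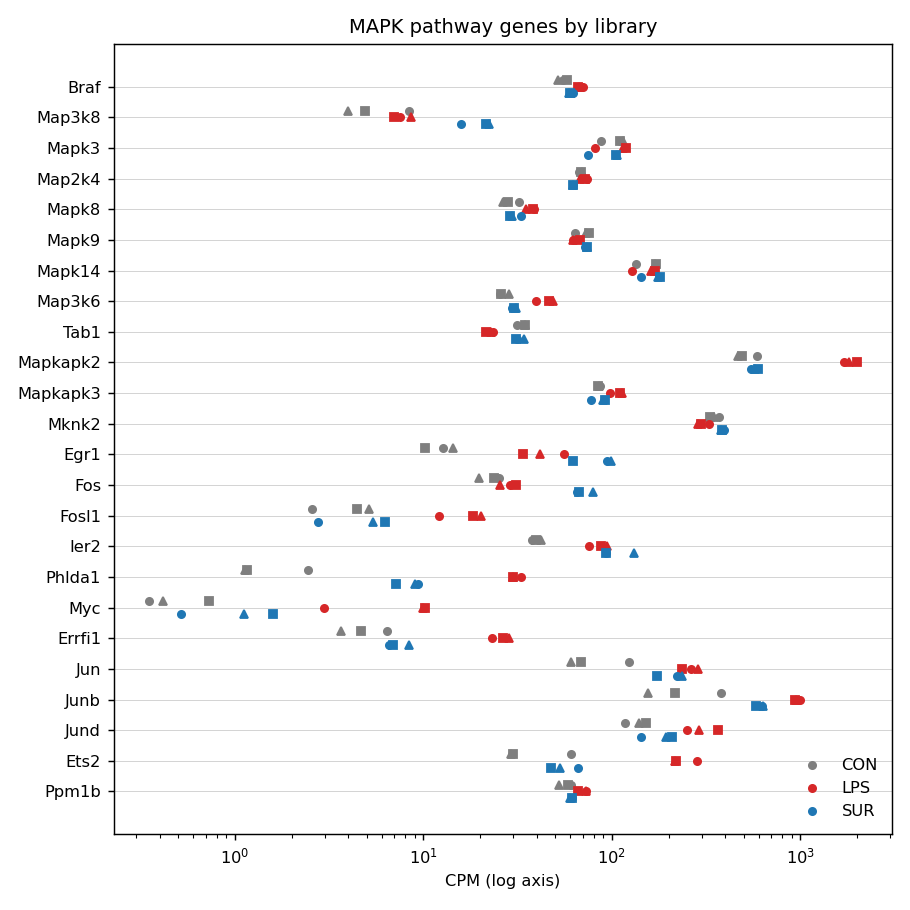
CPM of the named MAPK pathway genes in every library, on a log axis, coloured by group (circle, number 1; square, number 2; triangle, number 3). Mapkapk2 lies at 1697 to 1996 CPM in LPS and at 598 CPM or below elsewhere, and Egr1 and Fos are highest in SUR.

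Genes that ERK activity induces were divided in SUR. Of 15 tested ERK feedback and target genes, 8 rose and 1 fell with LPS, 3 rose and 7 fell in SUR against LPS, and 4 rose and 0 fell in SUR against CON. Over all tested genes the shares were 8.98% and 9.36%, 9.29% and 7.93%, and 0.39% and 0.0355%. The median log2 fold changes were 0.77, -0.52 and 0.25. Phlda1, Myc, Errfi1 and Fosl1 rose with LPS and fell in SUR: Myc had 0.499 ± 0.203, 7.67 ± 4.07 and 1.08 ± 0.540 CPM in CON, LPS and SUR (log2 3.93, adjusted p = 0.00184, then -2.83, adjusted p = 0.00692). Errfi1, which encodes a feedback inhibitor of EGFR, had 4.91 ± 1.41, 26.0 ± 2.80 and 7.27 ± 0.962 CPM (2.40, adjusted p = 9.21e-05, then -1.84, adjusted p = 0.000505). Without the 3 libraries numbered 1, Errfi1 was also called higher in SUR than in CON (0.87). Fosl1, an AP-1 subunit, had 4.04 ± 1.32, 16.9 ± 4.28 and 4.81 ± 1.82 CPM. Phlda1 fell only in part, from 30.9 ± 1.84 CPM in LPS to 8.50 ± 1.18 in SUR, and was above its CON level of 1.58 ± 0.755 (log2 2.42, adjusted p = 0.012, not called without CON 2, CON 3 or SUR 3, at 2.24, 2.23 and 2.37, or with only the 2 groups in the fit). Ccnd1, named after its values were seen as the only gene of this list that fell with LPS, was at -0.60 on the log2 scale (adjusted p = 0.00133), and at 0.44 in SUR against LPS (adjusted p = 0.00742).

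The immediate-early genes Egr1 and Fos were instead highest in SUR. Fos had 25.3, 23.7 and 19.7 CPM in CON, 28.9, 30.9 and 25.5 in LPS, and 65.1, 66.5 and 79.8 in SUR. SUR stood above every other library, and its log2 difference from LPS was 1.31 (SE 0.122, adjusted p = 0.000294). LPS against CON was 0.31 and not called, and 0.39 and called without the 3 libraries numbered 1. Egr1 had 12.7, 10.2 and 14.4 CPM in CON, 55.7, 33.7 and 41.3 in LPS, and 93.8, 62.5 and 99.0 in SUR, without overlap. Its log2 fold change was 1.81 for LPS against CON (adjusted p = 0.000936) and 0.96 for SUR against LPS (adjusted p = 0.0176). The latter was not called without LPS 2 (0.81), LPS 3 (0.93) or SUR 3 (0.84). Ier2, a further immediate-early gene, rose with LPS from 39.7 ± 2.20 to 85.6 ± 9.24 CPM (log2 1.11, adjusted p = 0.000874) and had 105.5 ± 22.1 in SUR, overlapping LPS and called above it only with the replicate block (0.29). Against CON, SUR was higher for Egr1 (2.77, adjusted p = 0.00493), Fos (1.62, adjusted p = 0.00477) and Ier2 (1.41, adjusted p = 0.0117). Without CON 2 none of these 3 was called (2.65, 1.65 and 1.40), and Ier2 was not called without CON 3 (1.45) or with only the 2 groups in the fit. Without CON 2 no gene at all was called between SUR and CON. Under the replicate block 7 of the 15 were called there.

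Of 14 transcription factor substrates of MAPKs, 4 rose and 0 fell with LPS, all AP-1 or ETS factors (7 and 0 with the replicate block). Junb had 251 ± 116.5, 961 ± 27.2 and 612 ± 29.2 CPM in CON, LPS and SUR (log2 1.94 with LPS, adjusted p = 0.00126). Jun had 84.1 ± 34.1, 261 ± 25.3 and 210.0 ± 32.8 CPM (1.63, adjusted p = 0.00209). In SUR against LPS 0 of the 14 rose and 2 fell. These were Ets2, at 238.5 ± 37.2 CPM in LPS and 55.2 ± 9.46 in SUR (-2.11, adjusted p = 0.00133), and Jund, at 301 ± 58.4 and 181 ± 34.9 (-0.73, adjusted p = 0.0226). The Jund call was lost without LPS 2, LPS 3, SUR 1 or SUR 3 (-0.57 to -0.78). Junb, at -0.65 in SUR against LPS, was not called in the 9-library fit (adjusted p = 0.132). It was called lower with the replicate block (-0.65, adjusted p = 0.0156), without CON 1 or CON 3 (-0.67 and -0.65), without the 3 libraries numbered 1 (-0.66) and with only the 2 groups in the fit. In SUR against CON 0 were called by edgeR and 0 by limma-voom, 2 by DESeq2 and 4 at an unadjusted p under 0.05. With the replicate block 6 were higher, among them Jun (1.35), Junb (1.36), Jund (0.40) and Ets2 (0.51), and without CON 1 Jun (1.70), Junb (1.72) and Ets2 (0.90) were called. Without the 3 libraries numbered 1, Jun (1.66), Junb (1.70), Jund (0.46) and Ets2 (0.76) were called higher there. The list's medians were 0.16, -0.02 and 0.20.

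Other phosphatases were read from lists of their own. Of 11 tested dual-specificity phosphatases that are not classical MAPK phosphatases, 0 were called in any comparison by edgeR, DESeq2 or limma-voom. At an unadjusted p under 0.05 there were 2, 2 and 1, and with the replicate block 3, 4 and 0 were called. Their log2 fold changes with LPS ran from -0.30 (Dusp12) to 0.76 (Dusp14), with medians of -0.04, 0.14 and 0.06 in the 3 comparisons. Of 4 other MAPK phosphatases, Ppm1b, a serine and threonine phosphatase, rose with LPS from 57.2 ± 4.26 to 70.4 ± 3.77 CPM (0.30, adjusted p = 0.0185). That call was lost without CON 3 (0.24), LPS 1 (0.28) or LPS 3 (0.28) and under upper-quartile scaling (0.0668) or on FPKM (0.208). It was called lower in SUR than in LPS with the replicate block (-0.21) and with DESeq2. In SUR against LPS, edgeR called 0 of these 4, limma-voom 0 and DESeq2 1, and 2 had an unadjusted p under 0.05. The block called 3 of the 4 there and 3 in LPS against CON, and the medians were 0.16, -0.04 and 0.04.

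The genes whose log2 CPM ran most like a member's over the 9 libraries were ranked among 7691 tested genes by Pearson's r. The points are 9 libraries in 3 groups and share those group differences, so the values only describe a like pattern. Most like Dusp1 were Pde4b (r = 0.995), Junb (0.995) and Zc3h12a (0.993). Pde4b had 25.0 ± 23.3, 316 ± 3.34 and 125 ± 11.1 CPM in CON, LPS and SUR. For Dusp2, the closest were Socs3 (0.997), Nfkbid (0.995) and Egr2 (0.990), all of which had a SUR mean nearer to LPS than to CON (Socs3 with 21.9 ± 11.3, 242 ± 54.9 and 165.5 ± 52.9 CPM). Dusp6 had Cyb561d1 (0.995), Gpr183 (0.990) and Zfp553 (0.985), which were lowest in LPS. Dusp8 had the chemokine gene Ccl4 (0.992), Rnf19a (0.990) and the chemokine gene Ccl3 (0.990), whose SUR means were nearer to CON than to LPS. Ccl4 had 30.7 ± 32.8, 896 ± 81.4 and 44.0 ± 5.44 CPM.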

How the data were processed

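RNA-seq libraries of MH-S cells (3 groups of 3) were analysed from 1 deposited table of 14771 genes. Per the submitters' processing notes, HISAT2 2.0.4 and the mouse build GRCm38 (mm10) were used; for the counting tool, annotation and strand setting, nothing is given in the sources used here. Per the file headers, the authors deposited expected counts, FPKM and TPM for each library. The deposited expected counts (93.4% whole numbers) were rounded. Genes were filtered with edgeR's filterByExpr (11281 kept), libraries scaled by TMM, and groups compared with the quasi-likelihood F test of edgeR 4.0.16 under R 4.3.3, all 9 libraries in 1 fit, with Benjamini-Hochberg adjustment over all tested genes and calls at an adjusted p under 0.05. The fit was also run on simulated data. These held no difference between library numbers, so that run says nothing on how the libraries numbered 1 affect the calls. The deposited FPKM entered 1 alternative as log2(FPKM + 0.1) with limma 3.58.1, and the deposited TPM, scaled by the authors for length and depth, gave levels between genes. Other alternatives were DESeq2 1.42.0, limma-voom, upper-quartile scaling, no low-count filter, only the 2 groups compared, a prior count of 2 for log2 CPM, each library left out, the libraries numbered 1 left out, and the replicate number as a block.

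Replicate numbers are shared between groups in the labels. Deviations from the group means correlated between same-numbered libraries of different groups in every pair (0.435 to 0.801), so the numbers were taken to pair the libraries. Between a library numbered 2 and another numbered 3, the correlation was 0.347 to 0.437. Between number 1 and either of these it was -0.643 to -0.521. The pattern thus mainly set number 1 apart, and the pairing within numbers 2 and 3 is weakly shown. The fit without the block stays the reported one, and blocked values are given where they change a call: members called between SUR and CON went from 1 to 5 with the replicate block.

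The members, lists, classes and tests were chosen with earlier results of these data known. The text names all 10 members; Mapk3, Mapk8, Mapk9 and Mapk14 (a further gene that the rule names is not reported here); up to 4 called genes per MAPK list and comparison with the largest changes; and, for Dusp1, Dusp2, Dusp6 and Dusp8, the 3 genes of highest correlation with mean log2 CPM of at least 4, without members and predicted genes. Gene positions are those of the deposited table, with chromosomes and promoters from RefSeq (GRCm38.p6), matched by gene ID and symbol.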

Additional observations from a re-analysis of the deposited data

How the results depend on the processing

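The counts of calls depended mainly on how the library numbers entered the fit. With the replicate block, called pathway genes went from 20 to 44 between LPS and CON, from 19 to 42 between SUR and LPS and from 5 to 20 between SUR and CON, and called members between SUR and CON from 1 to 5. Over all genes the block gave 4714, 5109 and 1302 calls, against 2069, 1943 and 48. Among the members and the pathway genes with CPM given, the block changed no other call than those given with the results. For Ccnd1, Dusp12, Dusp14 and the genes ranked by correlation other than Junb, calls under the alternatives were not summarised. Without the 3 libraries numbered 1, pathway calls were 35 between LPS and CON and 18 between SUR and CON, members called between SUR and CON 6, and all genes called 3415, 3391 and 587.

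Between SUR and CON, members called were 2 with DESeq2, 2 with limma-voom, 2 with upper-quartile scaling, 2 on FPKM, 2 without the low-count filter and 0 with only the 2 groups in the fit. There, pathway genes called were 9 with DESeq2 and 2 with only the 2 groups, and all genes called were 259 and 4. With single libraries left out, members called between SUR and CON ran from 0 (without CON 2, CON 3, LPS 2, LPS 3, SUR 2 or SUR 3) to 3 (without CON 1), pathway genes from 0 (without CON 2) to 9 (without CON 1), and all genes from 0 (without CON 2) to 168 (without CON 1). All genes called ran from 1379 (without CON 3) to 2075 (without CON 1) between LPS and CON, and from 1208 (without SUR 2) to 2054 (without CON 1) between SUR and LPS. The cause was not tested.

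Scaling changed the split of all genes called: 1013 higher and 1056 lower between LPS and CON became 765 and 1709 with upper-quartile scaling and 679 and 2056 on FPKM, and 1048 and 895 between SUR and LPS became 1595 and 616, and 1970 and 505. The members' split in these comparisons, 7 and 2, and 2 and 4, did not depend on it. No called value of a member or of a pathway gene with CPM given changed sign under an alternative. Of the fold changes of these genes under alternatives, 74 no longer passed the threshold, 71 newly passed it and 1619 did neither. Depth limits Dusp8 in CON, with 5 to 47 counts a library.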

Other observations

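The element TGACGTCA seen upstream of Dusp1 and Dusp8 was looked up in RefSeq promoters, which were matched by symbol for 9058 of the 11281 tested genes. Of 338 tested genes whose window holds it, 14.5% were called higher and 9.17% lower in LPS than in CON, against 8.81% and 9.48% of 8720 genes whose window does not. In SUR against LPS, 8.88% were higher and 13.6% lower, against 9.22% and 7.59%. In SUR against CON, 0.296% were higher and 0.0% lower, against 0.367% and 0.0344%. The median log2 fold changes were 0.06, -0.08 and -0.0016 for genes with the element, and -0.01, -0.0039 and -0.0116 for the others. Dusp1 and Dusp8 are themselves among the 338 and among those called higher with LPS. The look-up was made after the Dusp1 and Dusp8 windows had been seen, the comparisons share libraries, and no test of the difference was run.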
